A study of Mus musculus with 4 samples.

Results

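The genes of the mitochondrial respiratory chain were compared between mouse Ly6C-high bone marrow monocytes cultured with all-trans retinoic acid and the same kind of cells cultured with its solvent, DMSO. Members were chosen by symbol alone: Nduf genes of the A, B, C, S and V series, Sdha to Sdhd, the Uqcr genes, Cox4 to Cox8 and the Atp5 genes. Each probe set had to carry exactly 1 symbol in the platform annotation. The rule found 89 probe sets of 80 genes, out of 39720 probe sets tested and 22180 named genes. They comprised 33 genes of complex I, 4 of complex II, 8 of complex III, 17 of complex IV and 18 of ATP synthase. Of the 80, 2 are annotated as pseudogenes, Atp5c1-ps and Uqcrh-ps1. Where a gene had several probe sets, the brightest by its average across all 4 arrays stood for it.

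The respiratory chain sits in the inner mitochondrial membrane. Complex I takes electrons from NADH and complex II from succinate, ubiquinone carries them to complex III, and cytochrome c carries them on to complex IV, where oxygen is reduced. Complexes I, III and IV pump protons, and ATP synthase uses the proton gradient to make ATP. Most subunits are encoded in the nucleus and a few on mitochondrial DNA. Myeloid cells differ in how far they rely on this route as against glycolysis, and interleukin 4 is known to favour oxidative metabolism in mouse macrophages.

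There were 2 arrays of cells given 100 nM retinoic acid (RA) and 2 of cells given DMSO. All the cells came from bone marrow pooled from 3 mice, were enriched and then sorted as Ly6C-high, and grew with GM-CSF and interleukin 4 at 20 ng per ml each, per the labels' protocols. RA or DMSO was added when the culture began, and RNA was taken 24 h later. Every control cell therefore also had both cytokines and the solvent. No label says whether the replicates were separate cultures, so p-values measure the spread between these arrays only, which may be technical. All 10 monocyte markers examined, among them Ly6c2, Csf1r and Itgam, lay above the dim level in both groups. This dim level, a log2 intensity of 6.35, is the 95th percentile of 1405 olfactory and vomeronasal receptor probe sets. Neutrophil and progenitor markers were also above it: 9 of 9 and 2 of 3 on RA arrays, 8 of 9 and 3 of 3 on DMSO arrays. Of B cell markers 2 of 5 were above it on RA arrays and 1 of 5 on DMSO arrays, and of T and NK cell markers 3 of 6 in both groups. Of mast cell and basophil markers 0 of 4 were above it on RA arrays and 2 of 4 on DMSO arrays. The 1 erythroid marker measured was under it in both groups.

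No respiratory chain gene differed between RA and DMSO at a limma adjusted p under 0.05. The count was 0 of 80, beside 3.07% of all genes (681 of 22180) and 2.09% of all tested probe sets. Differences ran from -0.34 for Ndufa6 to 0.28 for Cox8a (log2, RA minus DMSO), and 39 genes were positive and 41 negative. Their median was -0.0039, beside 0.0087 over all genes. At an unadjusted p under 0.05 there were 6 members, or 7.5%, beside 15.1% of all genes. Many of all genes are dim. Above the dim level in at least 1 group, 0 of 72 members were called, beside 674 of 12987 other genes. There the shares at an unadjusted p under 0.05 (limma) were 6.94% and 22.6%. The smallest adjusted p among the members was 0.27, for Cox8a (limma). With 2 arrays a group the smallest p that exact permutation allows is 0.333, and each p here rests on limma's model. These are bulk samples, in which fewer cells of a type and less RNA per cell cannot be told apart.

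A p that misses the threshold does not show equality, so the 95% interval of each difference was computed from limma's moderated standard error. The median half-width of these intervals was 0.25 on the log2 scale. For all 80 members the interval lay inside a 2-fold difference in either direction, and for 73 it lay inside 1.5-fold. Among all genes the same counts were 21394 and 19203 of 22180. The widest reach downward was -0.72, for Atp5mpl, and upward 0.59, for Ndufb3. Both of these genes, small accessory subunits of ATP synthase and complex I, varied between replicates: Atp5mpl had log2 intensities of 10.83 and 10.27 with RA, against 10.51 and 10.85 with DMSO. Intervals are for single genes and carry no adjustment for the number of genes.

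**Figure D1:**
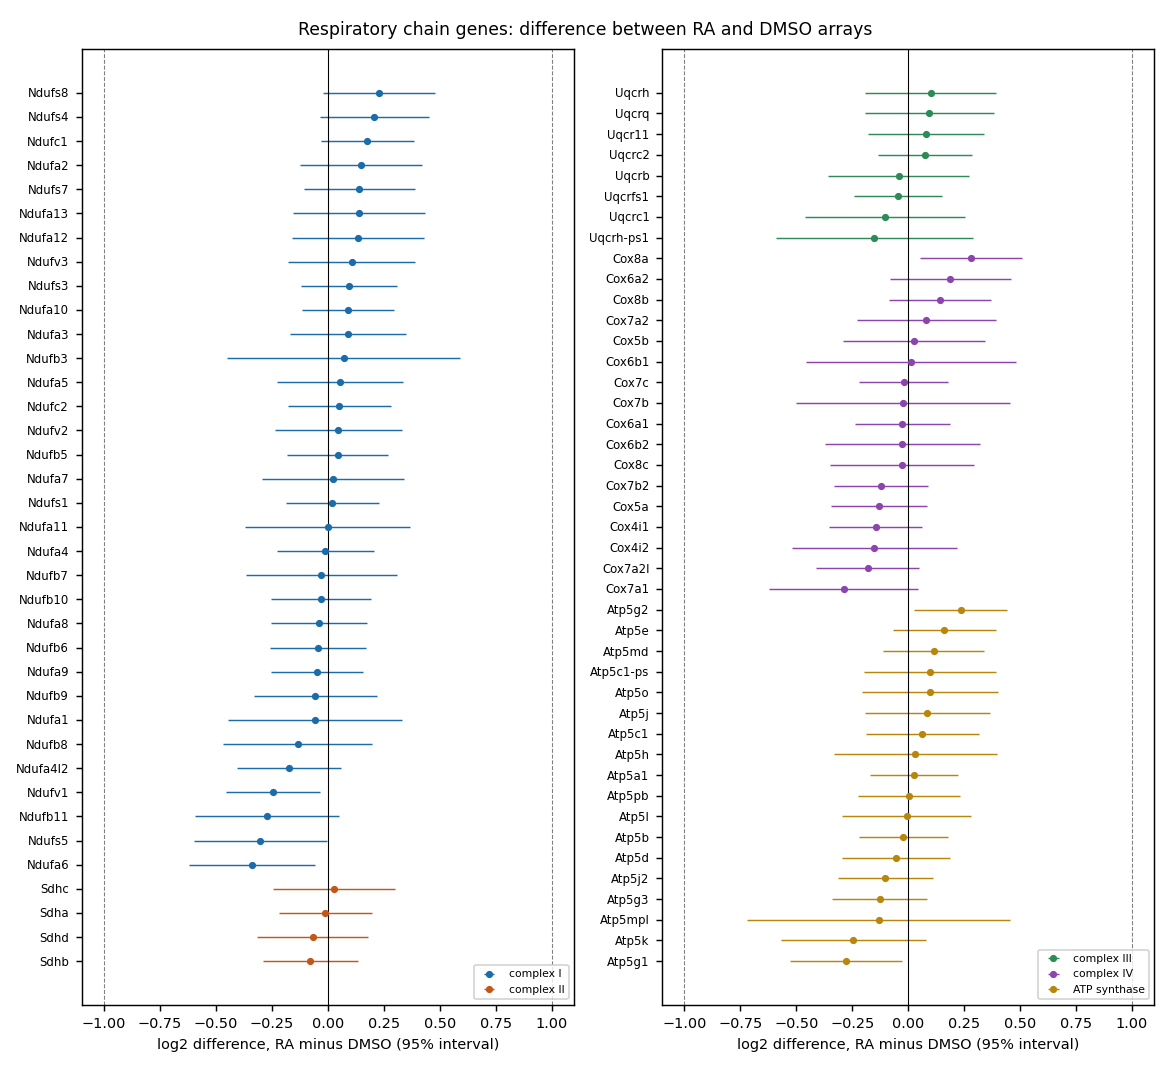
Log2 difference, RA minus DMSO, of 80 respiratory chain genes (points) with 95% intervals (bars), ordered within each complex; the dashed lines mark a 2-fold difference. Points lie between -0.34 and 0.28 and no interval reaches a dashed line.

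Among the 72 members above the dim level in at least 1 group, the median size of the difference in either direction was 0.080, against 0.12 for 12987 other genes above it. Both RA arrays lay above both DMSO arrays for 15 members, or 18.8%, beside 25.0% of all genes. Both lay below for 17 members, or 21.3%, beside 23.0% of all genes. The groups overlapped for the other 48. Above the dim level, both RA arrays were higher in 19.4% of members and 31.1% of other genes. They were lower in 19.4% and 25.6%. In 58 of the 80 genes, the gap between the replicate arrays of at least 1 group was larger than the difference between the group means, beside 14100 of all 22180 genes. No test was made of the members against other genes.

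**Figure D2:**
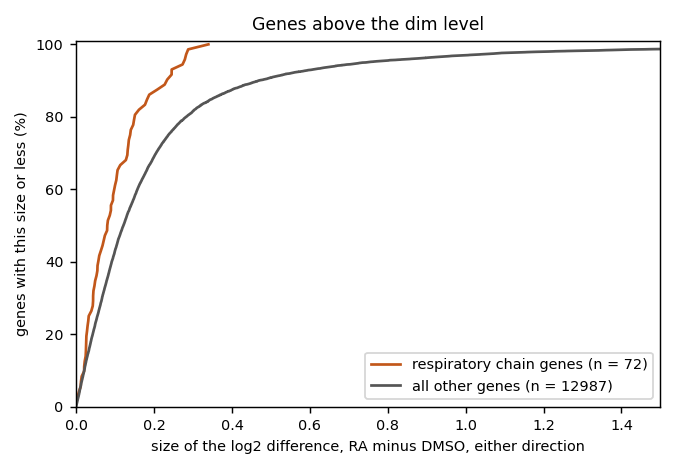
Cumulative share (percent) of genes by the size of the log2 difference between RA and DMSO, for 72 respiratory chain genes and 12987 other genes above the dim level; the horizontal axis ends at 1.5. The members' curve reaches its end at 0.34, the value of Ndufa6.

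Promoter sequence is shown for members that hold the core of the binding sequence of nuclear respiratory factor 1, since this factor is known to link many chain genes and since Ndufa6, the lowest member, and Atp5g2, the second highest, are among them. Windows from 250 bases before to 50 after the start came from RefSeq (GRCm38.p6); 64 of the 80 genes had one, with 69 windows in all. The letters GCATGCGC, searched on both strands, were in 10 of the 69 windows, or 14.5%, beside 2.71% of all 32851 windows. Printed are 6 of the 10; in Uqcr11 and Uqcrc1 the match lies past the start, and in Atp5l and Ndufa8 near an end of the printed stretch. Capitals mark the match on the gene's strand, which in Atp5k, Cox6a1, Ndufa11 and Atp5g2 overlaps a match on the other strand, and only bases before the start are printed, 5′ to 3′, from the lowest difference to the highest.
Ndufa6, chr15:82354337-82354404, minus strand: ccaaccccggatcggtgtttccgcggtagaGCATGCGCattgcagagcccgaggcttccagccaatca
Atp5k, chr5:108434410-108434477, minus strand: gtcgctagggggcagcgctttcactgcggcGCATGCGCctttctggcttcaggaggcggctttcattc
Sdhb, chr4:140961187-140961254, plus strand: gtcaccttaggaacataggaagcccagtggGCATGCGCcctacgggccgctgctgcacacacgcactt
Cox6a1, chr5:115349081-115349148, minus strand: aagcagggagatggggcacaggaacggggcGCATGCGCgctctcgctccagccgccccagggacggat
Ndufa11, chr17:56717674-56717741, plus strand: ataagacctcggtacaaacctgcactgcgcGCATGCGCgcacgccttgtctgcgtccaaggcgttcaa
Atp5g2, chr15:102671050-102671117, minus strand: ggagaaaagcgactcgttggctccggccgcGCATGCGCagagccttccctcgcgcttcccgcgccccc

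The printed match begins 40 bases before the start in Atp5g2, 48 in Atp5k, 54 in Sdhb, 58 in Ndufa11, 83 in Ndufa6 and 160 in Cox6a1. Members with these letters had differences on both sides of 0: -0.34 for Ndufa6, -0.24 for Atp5k, -0.08 for Sdhb, -0.03 for Cox6a1, -0.00056 for Ndufa11 and 0.23 for Atp5g2. Over all 10 the median was -0.032. Of the other letters searched on both strands, CGGAAGT of ETS factors was in 11 windows (15.9%, beside 6.42% of all) and AAGATGGCG of YY1 in 6 (8.70%, beside 1.40%). Members with the ETS letters, Cox8a among them, had differences from -0.05 to 0.28 with a median of 0.079. Those with the YY1 letters ran from -0.10 to 0.21 with a median of 0.11. The hexamer AGGTCA, bound by nuclear receptors, was in 14 windows (20.3%, beside 16.3% of all). Its members ran from -0.30 to 0.23 with a median of -0.028. Differences were not tested against the letters. A direct repeat of that hexamer with 5 or 2 free bases between, each of which contains it, was in 0 of 69 windows and in 3 of all 32851 for each spacing. Looser spellings of the retinoic acid response element were not searched. These shares describe the windows only, whose base composition was not compared.

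Complex I gave the lowest member value. Its 33 genes had a median difference of 0.025, with 18 positive and 15 negative, and 0 passed the test; 3 had an unadjusted p under 0.05. Ndufa6, an accessory subunit of the LYR family, had log2 intensities of 9.73 and 9.60 with RA, against 9.91 and 10.11 with DMSO. Both RA arrays were lower than both DMSO arrays, and the difference was -0.34 ± 0.11 (SE), a ratio of 0.79 (limma adjusted p = 0.285). Ndufv1, which binds NADH and the flavin cofactor in the peripheral arm, had 10.22 and 10.30 with RA, against 10.53 and 10.48 with DMSO. Its groups did not overlap either, at a difference of -0.25 ± 0.08 (limma adjusted p = 0.301). Ndufs5, an accessory subunit, had 5.83 and 6.06 with RA, against 6.32 and 6.17 with DMSO, all under the dim level. A brighter probe set annotated to both Ndufs5 and its pseudogene, left out by the rule, had 9.16 and 9.18 with RA, against 9.36 and 9.51 with DMSO. The fitted differences were -0.30 ± 0.11 and -0.27 ± 0.09 (adjusted p = 0.367 and 0.312, limma).

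The highest complex I values belonged to Ndufs8, Ndufs4 and Ndufc1. Ndufs8, a core subunit that holds iron-sulphur clusters, had 10.77 and 10.60 with RA, against 10.42 and 10.49 with DMSO. Ndufs4, an accessory subunit whose loss in mice gives a Leigh-like disease, had 10.14 and 9.98 with RA, against 9.82 and 9.89 with DMSO. In both genes each RA array was above each DMSO array, with differences of 0.23 ± 0.10 and 0.21 ± 0.09 (adjusted p = 0.416 and 0.442, limma). Ndufc1, a membrane-arm subunit, differed by 0.18 ± 0.08 (adjusted p = 0.443). Of the other low values, Ndufb11 differed by -0.27 ± 0.12, with the mean under the dim level on RA arrays.

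The remaining core subunits of complex I stood close together. Ndufs1, the largest iron-sulphur subunit, had 10.79 and 10.70 with RA, against 10.73 and 10.72 with DMSO, so the groups overlapped. Ndufs7, beside the ubiquinone site, differed by 0.14 ± 0.10, Ndufs3 by 0.095 ± 0.082 and Ndufv2 by 0.047 ± 0.109. Thus the core subunits of the same peripheral arm had values on both sides of 0, from Ndufv1 to Ndufs8. Their 95% intervals ran from -0.46 to -0.03 for Ndufv1 and from -0.02 to 0.48 for Ndufs8; the difference between these genes was not tested.

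Complex II, the succinate dehydrogenase that also belongs to the citrate cycle, varied least. Its flavoprotein Sdha had log2 intensities of 11.87 and 11.95 with RA, against 11.94 and 11.91 with DMSO. Its iron-sulphur subunit Sdhb had 10.50 and 10.48 with RA, against 10.52 and 10.62 with DMSO. The differences were -0.01 ± 0.08 and -0.08 ± 0.08. The membrane anchors Sdhc and Sdhd differed by 0.03 ± 0.10 and -0.07 ± 0.10. For all 4 genes the 95% interval lay inside 1.5-fold, and 0 of 4 had an unadjusted p under 0.05 (limma, smallest adjusted p = 0.754).

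Complex III had 8 genes with a median difference of 0.016, 4 positive and 4 negative, and 0 passed. Uqcrfs1, the Rieske iron-sulphur protein, had 8.90 and 8.92 with RA, against 8.94 and 8.96 with DMSO. The replicates were so close that the groups did not overlap, yet the difference was -0.04 ± 0.08. The core proteins Uqcrc1 and Uqcrc2 differed by -0.10 ± 0.14 and 0.07 ± 0.08. Uqcrc1 had 11.61 and 11.82 with RA, against 11.96 and 11.68 with DMSO, so that the order of replicates was opposite to that of most members described below. The small subunits Uqcrh, Uqcrq, Uqcr11 and Uqcrb lay between -0.04 and 0.10. The pseudogene Uqcrh-ps1 was under the dim level on every array.

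Complex IV gave the highest member value. Cox8a, the smallest subunit in its form found in most tissues, had log2 intensities of 12.43 and 12.31 with RA, against 12.12 and 12.06 with DMSO. Both RA arrays were higher, by 0.28 ± 0.09 or 1.22-fold (95% interval 0.05 to 0.51, limma adjusted p = 0.270). It was the 1 gene of the 17 with an unadjusted p under 0.05. Over the complex the median difference was -0.026, with 6 positive and 11 negative. Cox5a and Cox5b, which bind the catalytic core made from mitochondrial DNA, differed by -0.13 ± 0.08 and 0.03 ± 0.12.

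Several complex IV subunits exist as paralogues used in different tissues. The forms found in most tissues were above the dim level: Cox4i1 differed by -0.15 ± 0.08, Cox6a1 by -0.03 ± 0.08, Cox6b1 by 0.01 ± 0.18, Cox7a2 by 0.08 ± 0.12 and Cox7b by -0.03 ± 0.18. Forms known from heart and skeletal muscle had low intensities. Cox6a2 had 6.63 and 6.77 with RA, against 6.42 and 6.60 with DMSO, and Cox7a1 had 7.00 and 6.91 with RA, against 7.09 and 7.40 with DMSO. Neither passed (differences 0.19 ± 0.10 and -0.29 ± 0.13, adjusted p = 0.533 and 0.438, limma). Cox8b, the muscle form of the smallest subunit, and Cox6b2, Cox7b2 and Cox8c, known from testis, were under the dim level in both groups. Values under that level do not show whether a gene responded. Cox7a2l, which takes part in joining complexes III and IV into supercomplexes, differed by -0.18 ± 0.09 (adjusted p = 0.476).

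The pair of switches tied to low oxygen was also measured. In mammalian cells, hypoxia-inducible factor is known to raise Cox4i2, the low-oxygen form of subunit 4, and Ndufa4l2, a relative of Ndufa4. Cox4i2 had 6.72 and 6.83 with RA, against 6.75 and 7.10 with DMSO, and the groups overlapped at a difference of -0.15 ± 0.14. Ndufa4l2 had 5.25 and 5.39 with RA, against 5.47 and 5.52 with DMSO, all under the dim level, at -0.18 ± 0.09. Ndufa4 itself, named for complex I and later assigned to complex IV, differed by -0.01 ± 0.08. None passed (adjusted p = 0.726, 0.496 and 0.975, limma). Hif1a, which encodes the oxygen-regulated subunit of that factor, rose in the same cells, as given below.

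ATP synthase held members of like function on opposite sides of 0. Atp5g1, Atp5g2 and Atp5g3 each encode a precursor of the same mature c subunit, the protein of the rotating ring, and differ mainly in the targeting peptide. Atp5g1 had log2 intensities of 7.22 and 7.24 with RA, against 7.41 and 7.60 with DMSO. Atp5g2 had 12.46 and 12.40 with RA, against 12.22 and 12.17 with DMSO. Atp5g3 had 10.69 and 10.59 with RA, against 10.74 and 10.79 with DMSO. In each gene the groups did not overlap: RA arrays were lower for Atp5g1 and Atp5g3 and higher for Atp5g2. Such separation is common, with RA lower in 23.0% and higher in 25.0% of all genes. The contrast between these genes was not tested. The differences were -0.28 ± 0.10 for Atp5g1, 0.23 ± 0.08 for Atp5g2 and -0.13 ± 0.08 for Atp5g3, and none passed (adjusted p = 0.321, 0.313 and 0.598, limma). The second probe set of Atp5g2 had 11.78 and 11.72 with RA, against 11.54 and 11.51 with DMSO, and differed by 0.22 ± 0.08 (adjusted p = 0.325). It does not count as a second measurement if the probe sets share sequence, which the files do not show.

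**Figure D3:**
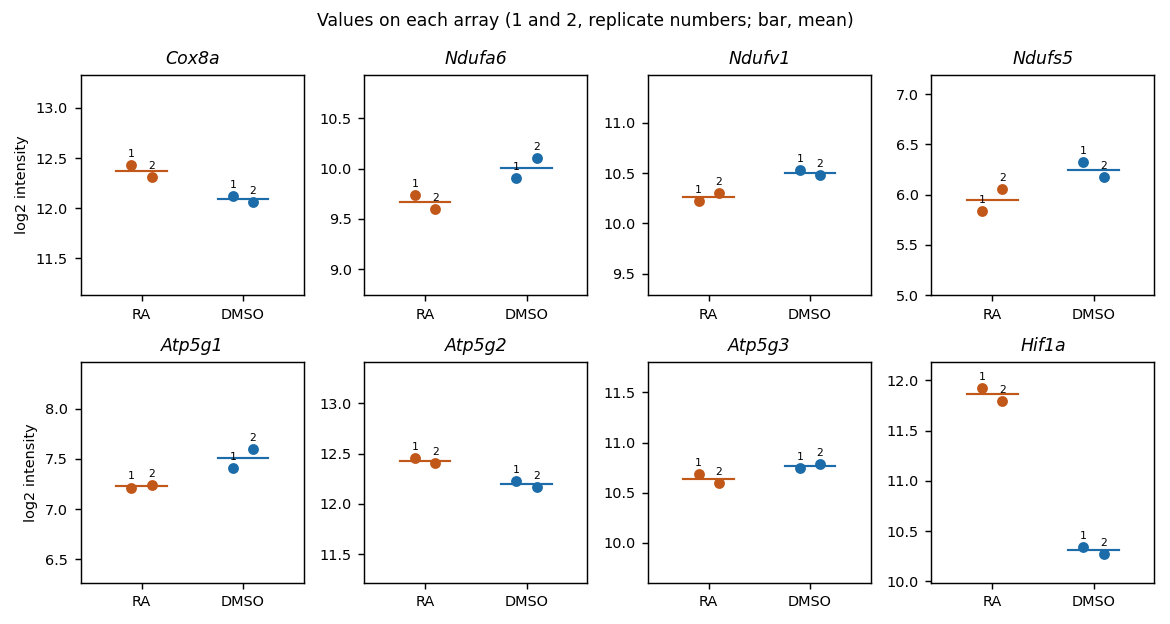
Log2 intensity on each array for 7 respiratory chain genes and Hif1a; RA at left, DMSO at right, numbers are replicate numbers and bars are means of 2 arrays. Every panel spans the same range, and the gap of Hif1a, 1.55, is larger than that of any member, at most 0.34 in size.

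The subunits of the catalytic head of ATP synthase had small differences. Atp5a1 had 13.02 and 13.02 with RA, against 13.01 and 12.98 with DMSO, and Atp5b, whose subunit carries the catalytic site, had 13.15 and 13.15 with RA, against 13.19 and 13.15 with DMSO. Their differences were 0.02 ± 0.08 and -0.02 ± 0.08, and both 95% intervals lay between -0.22 and 0.22. The gene of the central shaft, Atp5c1, differed by 0.06 ± 0.10, and Atp5d and Atp5e, of the same rotor, by -0.05 ± 0.09 and 0.16 ± 0.09. Atp5k, an accessory subunit of the membrane part, differed by -0.24 ± 0.12 (adjusted p = 0.495) and Atp5md, another, by 0.11 ± 0.09. Over the 18 genes the median difference was 0.014.

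For the 9 genes with several probe sets, the choice of probe set did not bring a call: 0 of 89 probe sets passed (limma), and 7 had an unadjusted p under 0.05. The probe sets of Atp5h gave 0.03 ± 0.14 and -0.08 ± 0.11, those of Cox5b 0.03 ± 0.12 and -0.12 ± 0.09, and those of Ndufa11 -0.00056 ± 0.14 and 0.11 ± 0.11. The second probe set of Cox5b was under the dim level, at 6.05 and 6.20 with RA, against 6.30 and 6.21 with DMSO. In Ndufa12 and Ndufa8 the pairs had like signs, at 0.13 and 0.15 and at -0.04 and -0.12. Subunit genes of the chain are known for processed pseudogenes, and 10 further probe sets naming a member along with another gene were left out by the rule. Of these, 0 passed, with differences from -0.27 for the shared probe set of Ndufs5 to 0.21 for that of Ndufs6 and Ndufs6b.

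Subunits encoded on mitochondrial DNA are not part of the rule and were read as a comparison. Of 13 protein genes listed, 10 had a probe set with 1 symbol, and 0 of 10 passed. Their differences ran from -0.28 to 0.01 with a median of -0.079, and 9 of 10 were negative. In all 10, RA replicate 1 was above RA replicate 2 and DMSO replicate 2 above DMSO replicate 1. COX1, the catalytic subunit of complex IV, had log2 intensities of 13.69 and 13.55 with RA, against 13.65 and 13.69 with DMSO, and CYTB, the mitochondrial gene of complex III, 13.61 and 13.49 with RA, against 13.58 and 13.66 with DMSO. Both overlapped, at -0.05 ± 0.09 and -0.07 ± 0.09. ND6, the protein gene on the light strand, had 10.20 and 10.04 with RA, against 10.36 and 10.43 with DMSO, and did not overlap (-0.28 ± 0.09, adjusted p = 0.315, limma).

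The lists of genes that serve the chain, apart from the regulators given below, also held 0 called genes. Unlike the chain, with 39 positive and 41 negative differences, they held more positive than negative ones. The genes on mitochondrial DNA were the exception, with 1 positive and 9 negative. Assembly factors had 30 positive and 16 negative, and mitochondrial ribosomal proteins 46 and 25, beside 11659 and 10521 of all genes. Among genes outside the chain above the dim level, 7162 were positive and 5825 negative. This lean was not tested. Of 46 assembly factors measured, 0 passed, with a median of 0.044 and a range from -0.32 to 0.48. Foxred1, a complex I assembly factor, had 9.07 and 9.04 with RA, against 8.77 and 8.50 with DMSO, and differed by 0.42 ± 0.12 (adjusted p = 0.222). Of 12 genes of ubiquinone synthesis and its helpers, 0 passed (median 0.041); Coq2, which joins the ring to the tail, differed by 0.40 ± 0.14 (adjusted p = 0.315). Of 14 genes of mitochondrial DNA upkeep and expression, 0 passed (median 0.076), among them Tfam, the factor that packages mitochondrial DNA, at 0.11 ± 0.09. Polg, the polymerase that copies it, differed by -0.38 ± 0.10 (adjusted p = 0.209). Of 71 mitochondrial ribosomal proteins, 0 passed (median 0.063), and of 14 carriers, uncouplers and alternative electron inputs, 0 passed (median 0.030). Cyc1 and Cycs, the cytochromes on either side of the step from complex III, differed by -0.03 ± 0.08 and -0.01 ± 0.10, and 0 of 5 such subunits outside the rule passed. At an unadjusted p under 0.05 (limma) these lists held 2 assembly factors, 1 ubiquinone gene, 3 mitochondrial DNA genes, 2 ribosomal proteins, 0 carriers, 1 other subunit and 1 gene of the mitochondrial DNA itself. As shares these ran from 0% for the carriers to 21.4% for the mitochondrial DNA upkeep genes, beside 15.1% of all genes.

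**Figure D4:**
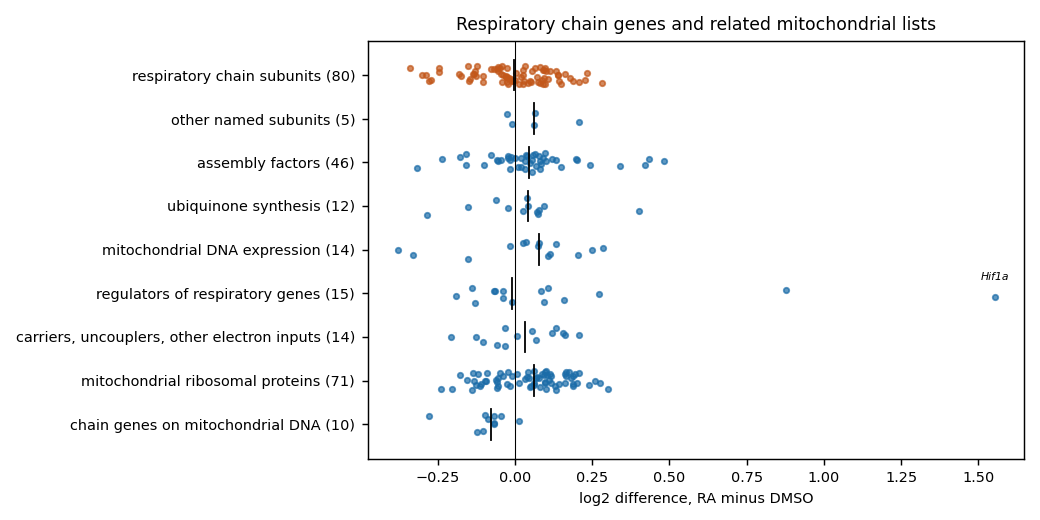
Log2 difference, RA minus DMSO, of single genes (points, spread vertically for sight only) and list medians (black bars) for the respiratory chain and related lists, with the number of genes in brackets. Hif1a stands at 1.55, whereas every respiratory chain gene lies between -0.34 and 0.28.

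The regulators of respiratory genes held 1 called gene. Of 15 measured, 1 rose, 0 fell and 14 did not pass, beside 1.28% of all genes that were called higher. Hif1a had log2 intensities of 11.93 and 11.79 with RA, against 10.34 and 10.27 with DMSO. The groups lay far apart, at a difference of 1.55 ± 0.09, which is 2.93-fold (limma adjusted p = 0.00646). Mycn, a growth factor-linked transcription factor, had 6.80 and 7.06 with RA, against 5.97 and 6.14 with DMSO, and missed the threshold (0.88 ± 0.13, limma adjusted p = 0.0519). Its DMSO values were under the dim level. The factors best known for driving respiratory genes did not pass: Nrf1 differed by 0.08 ± 0.08, Gabpa by -0.07 ± 0.08, Esrra by -0.04 ± 0.11, Yy1 by -0.06 ± 0.08 and the coactivator Ppargc1b by -0.13 ± 0.08. Ppargc1a, the main coactivator in muscle and brown fat, was under the dim level, at 4.62 and 4.74 with RA, against 4.49 and 4.65 with DMSO. The call of Hif1a was lost without any 1 of the 4 arrays (adjusted p = 0.0584 to 0.0746) and with probe sets of constant value kept in the test (0.0641).

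Genes outside the chain differed in the same comparison as Hif1a. Of 13 stress and immediate early genes, 0 rose and 2 fell, beside 1.79% of all genes that were called lower, and both RA arrays lay below both DMSO arrays in 8 of 13, beside 23.0% of all genes. Dusp1, a phosphatase of MAP kinases, had 7.988 and 8.002 with RA, against 9.366 and 9.264 with DMSO (-1.32 ± 0.08, limma adjusted p = 0.00746). Junb, an AP-1 subunit, had 9.27 and 9.15 with RA, against 9.91 and 9.86 with DMSO (-0.68 ± 0.09, limma adjusted p = 0.0398). Among 9 neutrophil markers the chemokine receptor Cxcr2 fell (-1.15 ± 0.10, limma adjusted p = 0.0167), and no other was called. The other differences ran from -0.15 for S100a9 to 0.21 for Elane. The log2 of the list's summed intensity was 13.95 and 13.92 on RA arrays, against 14.07 and 14.12 on DMSO arrays. This sum includes Cxcr2, so it is no separate sign of a shift in the list. Among 5 B cell markers Cd79b, of the B cell receptor, rose (0.65 ± 0.09, limma adjusted p = 0.0471), and no other was called. The log2 sum of the B cell list was 8.71 and 8.70 on RA arrays, against 8.37 and 8.34 on DMSO arrays. This sum includes Cd79b, so it is no separate sign of a rise in the list. The other differences ran from -0.18 for Ms4a1 to 0.22 for Vpreb1. Ms4a1, Pax5 and Vpreb1 of that list were under the dim level in both groups. Of 3 progenitor markers 0 passed, and all were lower with RA. Cd34 differed by -0.50 ± 0.10 (limma adjusted p = 0.119), Gata2 by -0.42 ± 0.27 and Kit by -0.07 ± 0.08. Without any 1 array the adjusted p was 0.0813 to 0.123 for Cxcr2 and 0.144 to 0.293 for Cd79b, so both calls were lost, as were those of Dusp1 and Junb. The part of these genes and cells in the Hif1a result was not tested.

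Replicate arrays differed among the members in 1 shared order. RA replicate 1 was above RA replicate 2 in 59 of 80 members (73.8%), beside 44.3% of all genes, and DMSO replicate 2 was above DMSO replicate 1 in 61 (76.3%), beside 47.6%. Both held in 51 members (63.8%), beside 24.1% of all genes. Among genes above the dim level in at least 1 group, both held in 69.4% of members and 27.4% of other genes. The median gap was 0.092 between the RA arrays and 0.095 between the DMSO arrays, beside a median size of 0.088 for the RA minus DMSO differences. Complex I showed the order in 26 of 33 genes, complex II in 3 of 4, complex III in 4 of 8, complex IV in 8 of 17 and ATP synthase in 10 of 18. Cox6b1 is an example, with 11.34 and 10.97 on RA arrays, against 10.97 and 11.32 on DMSO arrays: the gaps within treatments were each over 0.3, and the groups differed by 0.01 ± 0.18. The labels name no factor that sets RA replicate 1 and DMSO replicate 2 apart from the others, and the cause was not tested. Since genes on these 4 arrays share the arrays, their number is not a number of independent observations.

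**Figure D5:**
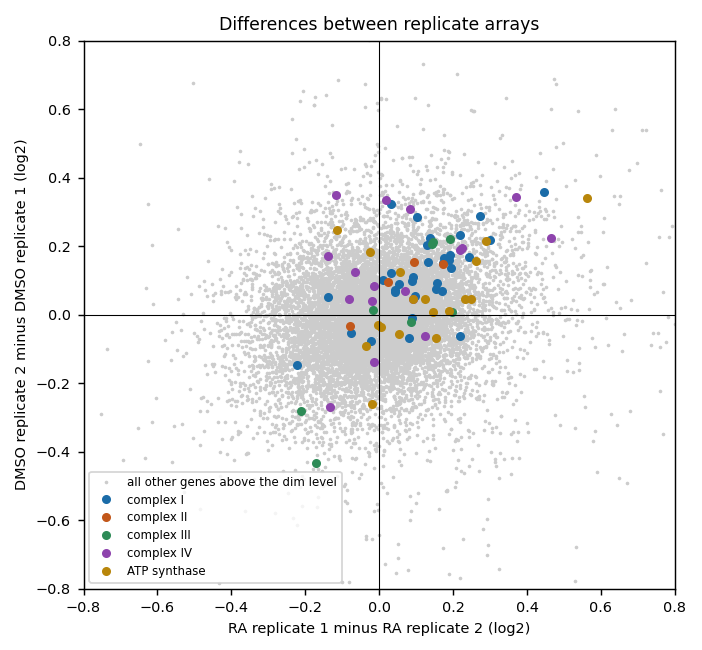
Difference between the RA replicates (horizontal) and between the DMSO replicates (vertical), log2, for respiratory chain genes by complex (coloured) and other genes above the dim level (grey; those beyond 0.8 in size are not drawn). In 51 of 80 members both differences are above 0; these points lie at the upper right.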

How the data were processed

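The authors deposited 1 intensity per probe set for each of 4 arrays; per the submitters' processing notes these came from Affymetrix Expression Console with RMA, which corrects background, equalises array distributions and summarises probes. A change shared by most genes would therefore not show, and differences of dim genes are understated. Versions and genome build are not given in the sources used here. The linear intensities (array medians 80.0 to 81.8) were taken to log2 here and not normalized again. Of 41345 probe sets, 1625 held 1 constant value on all arrays and were left out, leaving 39720.

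The RA and DMSO arrays were tested in limma 3.58.1 under R 4.3.3 (lmFit, then eBayes; two-sided; no covariates), with Benjamini-Hochberg adjustment over all 39720 probe sets and a threshold of 0.05. The steps were tested on simulated data. Gene names came from the platform annotation, and all 89 member probe sets were found by gene identifier in RefSeq GRCm38.p6. The members and lists were chosen with earlier results of these data known, so no list was tested. Named genes were those called, the 3 highest and 3 lowest differences of each complex, paralogues, core subunits and genes with several probe sets. No label says whether the replicate numbers pair the arrays, and the main fit did not pair them. Deviations of same-numbered arrays correlated at -0.25 across probe sets. This cannot decide the pairing, since all probe sets share the same 4 arrays. Alternatives concerned the constant, dim and unnamed probe sets, scaling, the variance model, a replicate block and single arrays. The number of arrays limits the precision.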

Additional observations from a re-analysis of the deposited data

How the results depend on the processing

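The count of respiratory chain genes called was 0 under each of the 13 alternatives run, the crossed pairing included, and with every probe set of the members counted. That says little where few or no probe sets passed at all. Over all probe sets, 831 passed, against 0 with the constant probe sets kept (smallest adjusted p = 0.0535), 1636 with only probe sets of 1 symbol, 161 with the replicate block, and 25 to 55 without any 1 array, where the lone array left in a group is assumed to vary like the others. Same-numbered arrays deviated in opposite directions, and the crossed pairing, chosen after seeing the data, called 457. In the lists beside the chain, 3 genes passed, Hif1a and the stress genes Dusp1 and Junb (-1.32 and -0.68); 0 did with the constant probe sets kept or without any 1 array, and 1 with the replicate block. Of 78 medians over the chain and its complexes, 77 moved by less than the spread between replicates. Many of these could not move. The fitted difference of a gene stays the same when only the other probe sets tested or the variance model change. It also stays the same with the replicate block added. Leaving out 1 array moves a group mean by only part of the gap between its replicates, and the spread was computed from those gaps. Moves smaller than the spread were therefore nearly given in advance, and the count of 77 is no check of stability. The median of complex IV ranged from -0.14 without DMSO replicate 1 to 0.024 without DMSO replicate 2, against -0.026 with all arrays, and the median of the whole chain ran from -0.046 to 0.071 without any 1 array. The 55 named members kept their side of the threshold in every alternative that tested them; with dim probe sets left out, 71 of the 80 members were tested. Of the named genes, 44 of 688 values had the other sign, none above 0.21 in size. The 688 include the values fixed in this way, so a sign could change only with another scaling or without 1 array.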

Other observations

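The order of replicate arrays seen in the chain was also present in lists beside it. Both RA replicate 1 above RA replicate 2 and DMSO replicate 2 above DMSO replicate 1 held in 10 of 10 genes of the mitochondrial DNA, 48 of 71 mitochondrial ribosomal proteins, 26 of 46 assembly factors, 7 of 12 ubiquinone genes and 6 of 14 genes of mitochondrial DNA upkeep, beside 24.1% of all genes. It held in 4 of 14 carriers, 3 of 15 regulators, 3 of 13 stress genes and 2 of 5 subunits outside the rule.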
